A study of Homo sapiens with 9 samples.

Results

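A set of 10 genes of the hypoxia response was followed in MDA-MB-231 cells that had survived treatment with erastin or RSL3. They are the subunits of the hypoxia-inducible factors (HIF1A, EPAS1 and ARNT), the HIF prolyl hydroxylases EGLN1 and EGLN3, and the hypoxia-response genes CA9, BNIP3, NDRG1, ADM and VEGFA. The members were matched by gene symbol, the choice of genes having been made with earlier results of these data known, and all 10 were found among the 58735 genes listed in the count files. MDA-MB-231 is an established human triple-negative breast cancer cell line. The 9 RNA-seq libraries form 3 groups of 3. The vehicle group was treated with DMSO. The erastin-R group consists of cells treated with erastin, an inhibitor of cystine uptake, and the RSL3-R group of cells treated with RSL3, an inhibitor of the lipid peroxide-reducing enzyme GPX4, and both compounds induce ferroptosis, an iron-dependent cell death driven by lipid peroxidation. Per the study's results and supplementary figure legend, these were the cells left alive after treatment with increasing amounts of drug. Each treated group is thus a surviving population of a single cell line, and the labels give neither the dose at harvest nor an oxygen level. The labels do not say that the replicates were separate cultures. All p-values therefore measure the spread between these libraries, which may be technical.

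Cells adjust to low oxygen through the HIF transcription factors, each a pair of an oxygen-labile alpha subunit and the stable beta subunit encoded by ARNT. In the presence of oxygen, iron and 2-oxoglutarate the EGLN enzymes hydroxylate prolines of the alpha subunit, VHL binds the hydroxylated protein, and the proteasome destroys it. The main control of the alpha subunits thus acts on the protein, which was not measured here. When the alpha subunit is stabilised, the pair binds a short core sequence, ACGTG or GCGTG, near target genes. Those genes serve glycolysis, acid export, blood vessel growth, mitophagy and iron handling, and CA9 is widely used as a readout of HIF activity.

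Promoter stretches are shown for the 4 members that fell in both treated groups and whose window holds a HIF core. RefSeq promoter windows on GRCh38, from 250 bases before to 50 bases after a RefSeq start site, were on hand for 8 of the 10 members. That site can lie inside the gene span given below, as for EGLN1 (231422287) and EGLN3 (33951074). NDRG1 and VEGFA had no entry. The cores ACGTG and GCGTG were searched on both strands, so that they appear as CACGT and CACGC where they lie on the strand opposite to the gene. Capitals mark the cores, all sequences read 5′ to 3′ on the strand of the gene, and positions count bases before the start site.
CA9, chr9:35673898-35673927, plus strand, positions -30 to -1, within exons of CA9 and of ARHGEF39 on the other strand: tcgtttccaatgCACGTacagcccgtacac
EGLN1, chr1:231422288-231422317, minus strand, positions -30 to -1, within an exon of EGLN1: ccgcggggccgtggtgtACGTGcagagcgc
BNIP3, chr10:131982019-131982073, minus strand, positions -150 to -96, outside annotated genes: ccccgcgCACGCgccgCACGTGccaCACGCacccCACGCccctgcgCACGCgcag
ADM, chr11:10304958-10304987, plus strand, around position -101, within an exon of ADM: gagagcaggagcgcGCGTGgctgaggaaag

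ACGTG was present in the windows of CA9 (position -18), EGLN1 (position -13) and BNIP3 (positions -134 and -133, where CACGTG reads the same on both strands). GCGTG was present at 4 positions of the BNIP3 window and in those of ADM (position -101), EPAS1 (position -117) and HIF1A (position -204), and the windows of ARNT and EGLN3 held neither core. Over all 35116 windows in the table, 21.4% held ACGTG and 36.5% held GCGTG. A match is only a run of letters, and the absence of one from these windows says nothing of sites elsewhere.

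Total counts ranged from 15405102 to 17273464 per library, and 16188 genes were expressed well enough to be tested. Log-scale profiles of 2 libraries correlated at 0.986 to 0.992 within a group and 0.959 to 0.972 between groups, as a description across genes. The genes taken as high in this mesenchymal-like line (VIM, CD44, EGFR and AXL) summed to 2939 to 3498 CPM (read counts scaled to library size, with TMM factors), against 1.46 to 6.02 CPM for ESR1, PGR, CDH1 and EPCAM. Among the latter, CDH1 had 14 to 27 counts in vehicle and 53 to 59 in RSL3-R (log2 1.58, edgeR adjusted p = 0.00130), while EPCAM did not pass against vehicle in either group. The 8 markers of blood, endothelium, fibroblasts and liver summed to 17.1 to 19.6 CPM in vehicle, 10.8 to 13.01 in erastin-R and 24.0 to 25.7 in RSL3-R. That sum came mostly from COL1A1, with 111 to 205 counts per library, and the endothelial marker PECAM1, at 9.99 ± 0.816, 1.79 ± 0.457 and 12.8 ± 1.10 CPM in the same order (mean ± SD, n = 3 each). CD3E, CD79A, VWF, COL3A1 and ALB had 0 to 9 counts, COL3A1 with none in vehicle and erastin-R and CD3E with none in erastin-R. The blood cell marker PTPRC had 4 to 11 counts in vehicle, 3 to 11 in erastin-R and 19 to 24 in RSL3-R. In RSL3-R it was higher than in vehicle (log2 1.67, edgeR adjusted p = 0.00818) and than in erastin-R (log2 1.97, edgeR adjusted p = 0.00372). The part of these genes in the results below was not tested. Leaving out erastin-R replicate 1 raised the number of genes that passed the 2-fold threshold from 2162 to 2573 against vehicle and from 1674 to 2143 between the treated groups.

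The first question was whether the survivors of either drug differed from vehicle cells in these genes. A change was called where the edgeR adjusted p was under 0.05 and the fold was at least 2. In erastin-R, HIF1A rose by this rule while CA9 and EGLN3 fell, that is 3 of 10 members where 13.4% of all tested genes were called (6.70% higher and 6.66% lower). In RSL3-R, EGLN3, CA9 and BNIP3 fell and no member rose, again 3 of 10, against 10.1% of all genes (4.08% lower). Without the minimum fold, 9 of 10 members passed in each comparison, with 3 higher and 6 lower, against 54.0% of all genes in erastin-R (27.1% higher, 26.8% lower) and 48.7% in RSL3-R (23.8% higher, 24.9% lower). In erastin-R the members had a median log2 fold change of -0.32, and in RSL3-R of -0.51, where the medians of all tested genes were -0.00 and 0.01. Both comparisons use the same 3 vehicle libraries, so a shared direction of a gene in them is not independent. In bulk RNA, fewer cells with a transcript and less of it per cell cannot be told apart.

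**Figure D1:**
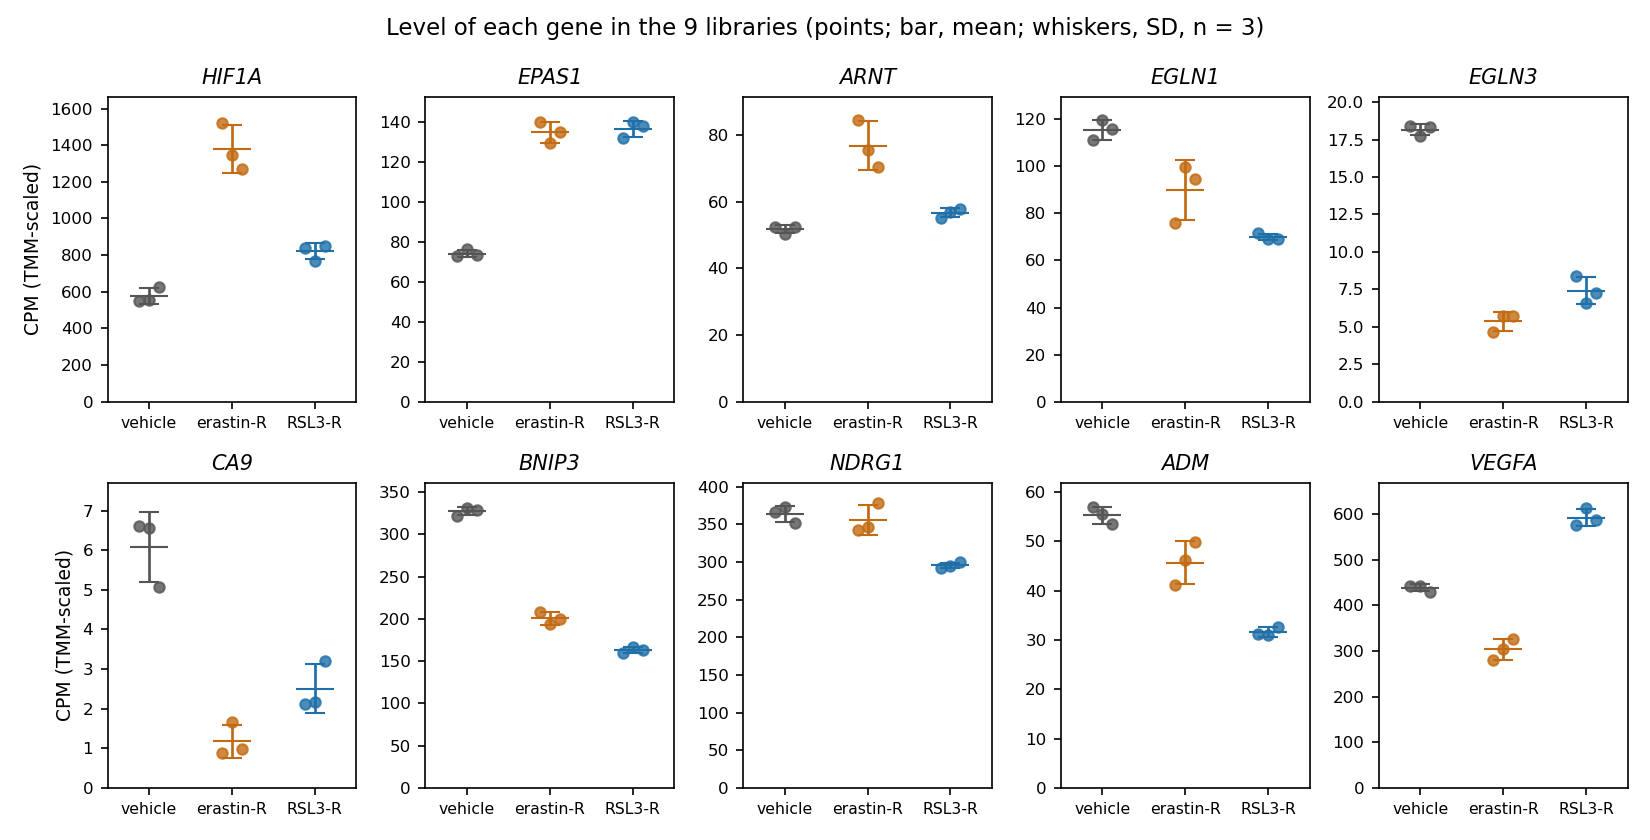
Level of the 10 genes in each library, in TMM-scaled CPM on linear axes that start at 0; points are libraries, bars are group means and whiskers are SD (n = 3). HIF1A is highest in erastin-R, EGLN3 and CA9 are lowest there, and VEGFA lies below vehicle in erastin-R and above it in RSL3-R.

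HIF1A (ENSG00000100644, chr14:61695513-61748259, GRCh38, plus strand) encodes the oxygen-labile alpha subunit of HIF-1. Its level was 549.2, 554.4 and 625.6 CPM in the vehicle libraries, 1522, 1344 and 1268 CPM in erastin-R, and 839.8, 770.0 and 849.8 CPM in RSL3-R. The 3 groups did not overlap, with erastin-R highest and RSL3-R between. The transcript rose 2.39-fold in erastin-R (log2 fold change 1.26 ± 0.08 SE, edgeR adjusted p = 1.90e-08) and 1.42-fold in RSL3-R (0.51 ± 0.08, edgeR adjusted p = 8.09e-05). The direct comparison of RSL3-R with erastin-R gave -0.75 ± 0.08 (edgeR adjusted p = 3.21e-06). The antisense transcript HIF1A-AS1 covers 2.27% of the exon length of HIF1A and had 1 to 8 counts per library.

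EPAS1 (ENSG00000116016, chr2:46293667-46386703, plus strand) encodes HIF-2α, the alternative alpha subunit, which shares the core sequence of HIF-1 but drives a partly different set of genes. It stood at 72.73, 76.21 and 73.22 CPM in vehicle, 140.0, 129.2 and 134.9 CPM in erastin-R, and 131.8, 139.8 and 137.7 CPM in RSL3-R. Every treated library lay above every vehicle library, whereas both treated groups overlapped. EPAS1 rose 1.82-fold in erastin-R (log2 0.86 ± 0.06, edgeR adjusted p = 5.54e-08) and 1.84-fold in RSL3-R (log2 0.88 ± 0.06, edgeR adjusted p = 4.19e-08). Between the treated groups the log2 difference was 0.02 ± 0.06 (edgeR adjusted p = 0.811).

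ARNT (ENSG00000143437, chr1:150809705-150876768, minus strand) encodes the beta subunit with which either alpha subunit pairs. Its levels were 52.40, 50.27 and 52.31 CPM in vehicle, 84.63, 75.58 and 70.27 CPM in erastin-R, and 55.19, 56.87 and 57.92 CPM in RSL3-R. The erastin-R libraries were all above the others, and the RSL3-R libraries lay just above vehicle. ARNT rose 1.49-fold in erastin-R (log2 0.57 ± 0.07, edgeR adjusted p = 2.03e-05), and its log2 difference in RSL3-R was 0.13 ± 0.07 (edgeR adjusted p = 0.159). All 3 subunits thus rose in erastin-R, whereas HIF1A and EPAS1 passed the test in RSL3-R and ARNT did not. ARNT was lower in RSL3-R than in erastin-R by the direct test (log2 -0.44 ± 0.07, edgeR adjusted p = 2.47e-04).

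Since the alpha subunits compete for ARNT, their transcripts were set against each other per length, as deposited FPKM, a measure scaled to exon length and library size. HIF1A exceeded EPAS1 in every library. The HIF1A to EPAS1 ratio was 10.7, 10.3 and 12.1 in the vehicle libraries, 15.4, 14.8 and 13.3 in erastin-R and 9.03, 7.81 and 8.75 in RSL3-R. Group means were 11.04 ± 0.947, 14.5 ± 1.07 and 8.53 ± 0.643 (SD, n = 3), and no 2 groups overlapped. Expressed as the log2 of EPAS1 over HIF1A, erastin-R lay at -0.39 and RSL3-R at 0.37 relative to vehicle, and RSL3-R at 0.77 relative to erastin-R. The exact two-sided permutation test gave p = 0.1 for each of these 3 comparisons, which is the smallest value that 3 against 3 libraries allow, so none can pass 0.05 before or after adjustment.

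EGLN1 (ENSG00000135766, chr1:231363751-231425044, minus strand), the principal oxygen-sensing prolyl hydroxylase in most cells and itself a HIF target, was lower in both treated groups. It measured 111.0, 119.6 and 115.7 CPM in vehicle, 75.70, 99.76 and 94.47 CPM in erastin-R, and 71.56, 68.92 and 69.26 CPM in RSL3-R. The groups did not overlap, and erastin-R replicate 1 lay nearest to RSL3-R. EGLN1 fell in erastin-R by a log2 of -0.36 ± 0.09 (edgeR adjusted p = 0.00293) and in RSL3-R by -0.72 ± 0.09 (edgeR adjusted p = 1.22e-05). RSL3-R was lower than erastin-R by a log2 of -0.36 ± 0.09 (edgeR adjusted p = 0.00351).

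EGLN3 (ENSG00000129521, chr14:33924231-34462774, minus strand), a strongly HIF-inducible hydroxylase, fell further. The vehicle libraries had 18.42, 17.73 and 18.32 CPM, the erastin-R libraries 4.645, 5.726 and 5.714 CPM, and the RSL3-R libraries 8.381, 6.588 and 7.247 CPM. Vehicle stood far above both treated groups, and erastin-R was the lowest. EGLN3 was 3.39-fold lower in erastin-R (log2 -1.76 ± 0.13, edgeR adjusted p = 9.81e-08) and 2.45-fold lower in RSL3-R (log2 -1.29 ± 0.12, edgeR adjusted p = 1.43e-06). Its counts of 78 to 309 per library were far above the floor of 3 counts. The 2 hydroxylases were ordered differently in the treated groups, as EGLN1 was lower in RSL3-R than in erastin-R while EGLN3 was higher (log2 0.47 ± 0.14, edgeR adjusted p = 0.0122).

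CA9 (ENSG00000107159, chr9:35673856-35681159, plus strand) encodes carbonic anhydrase IX, a cell-surface enzyme that regulates pH in hypoxic tumours and a widely used hypoxia marker. It was counted 111, 106 and 82 times in the vehicle libraries, 15, 26 and 16 times in erastin-R, and 33, 35 and 55 times in RSL3-R. In CPM these were 6.617, 6.547 and 5.058, then 0.8933, 1.654 and 0.9726, then 2.128, 2.175 and 3.214. The 3 groups did not overlap, with erastin-R lowest. CA9 was 5.18-fold lower in erastin-R (log2 -2.37 ± 0.26, edgeR adjusted p = 4.05e-06), the largest change among the 10 members, and 2.41-fold lower in RSL3-R (log2 -1.27 ± 0.23, edgeR adjusted p = 4.31e-04). RSL3-R was 2.15-fold above erastin-R (log2 1.10 ± 0.28, edgeR adjusted p = 0.00531), a difference that dropped below 2-fold without erastin-R replicate 1 (log2 0.94), erastin-R replicate 3 (0.98) or RSL3-R replicate 3 (0.92).

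The reads of CA9 carry a further limit. ARHGEF39, a gene on the opposite strand, overlaps 643 of the 1670 exon bases of CA9 (38.5%), the library kit did not mark strand, and the strand setting of the counting was not stated. Reads of the overlap cannot be told apart. ARHGEF39 itself was at 21.9 ± 0.791, 17.4 ± 1.11 and 11.1 ± 0.292 CPM in vehicle, erastin-R and RSL3-R (SD, n = 3). Like CA9, ARHGEF39 passed the test downwards against vehicle for both drugs. Erastin survivors had a log2 change of -0.33 (edgeR adjusted p = 0.00780), and RSL3 survivors one of -0.98 (edgeR adjusted p = 1.71e-06). The lowest group was RSL3-R for ARHGEF39 and erastin-R for CA9. The part of ARHGEF39 in the fall of CA9 was not tested.

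BNIP3 (ENSG00000176171, chr10:131966455-131982013, minus strand) encodes a mitochondrial outer-membrane protein that promotes mitophagy. It was at 321.9, 330.7 and 329.0 CPM in vehicle, 208.3, 193.3 and 200.1 CPM in erastin-R, and 159.8, 166.4 and 163.0 CPM in RSL3-R. The 3 groups were well separated with little spread. BNIP3 fell in erastin-R by a log2 of -0.71 ± 0.05 (edgeR adjusted p = 1.39e-07) and in RSL3-R by -1.004 ± 0.05 (edgeR adjusted p = 4.48e-09), a 2.01-fold difference that sits on the 2-fold line and was at least 2-fold in 9 of 16 alternative analyses, but not without RSL3-R replicate 1 (log2 -0.95) or 3 (-0.97). RSL3-R was below erastin-R by a log2 of -0.30 ± 0.05 (edgeR adjusted p = 4.35e-04). Of the 50-base words of its transcripts 9.92% occur in other genes, mainly the pseudogene BNIP3P1.

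NDRG1 (ENSG00000104419, chr8:133237171-133302022, minus strand) is a stress-responsive gene that also responds to iron depletion and had the smallest difference of the members in erastin-R against vehicle. It had 366.3, 372.3 and 352.2 CPM in vehicle, 342.5, 346.4 and 377.8 CPM in erastin-R, and 292.2, 294.7 and 299.4 CPM in RSL3-R. Vehicle and erastin-R overlapped, and the RSL3-R libraries were below both. The log2 difference in erastin-R was -0.03 ± 0.06 (edgeR adjusted p = 0.652). NDRG1 fell in RSL3-R, by a log2 of -0.30 ± 0.06 (edgeR adjusted p = 5.59e-04), and was lower there than in erastin-R (log2 -0.27 ± 0.06, edgeR adjusted p = 0.00136).

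ADM (ENSG00000148926, chr11:10304680-10307397, plus strand) encodes adrenomedullin, a secreted vasodilator peptide. Its levels were 56.93, 55.58 and 53.48 CPM in vehicle, 41.21, 46.13 and 49.79 CPM in erastin-R, and 31.20, 30.95 and 32.67 CPM in RSL3-R. No groups overlapped, and RSL3-R was lowest. ADM fell by a log2 of -0.28 ± 0.08 in erastin-R (edgeR adjusted p = 0.00818) and by -0.81 ± 0.08 in RSL3-R (edgeR adjusted p = 1.77e-06). RSL3-R was below erastin-R by a log2 of -0.53 ± 0.08 (edgeR adjusted p = 9.83e-05).

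VEGFA (ENSG00000112715, chr6:43770184-43786487, plus strand), the main growth factor for blood vessels, went in opposite directions. The vehicle libraries had 442.5, 443.2 and 429.4 CPM, the erastin-R libraries 279.8, 304.8 and 325.7 CPM, and the RSL3-R libraries 576.8, 614.3 and 586.7 CPM. All erastin-R libraries lay below vehicle and all RSL3-R libraries above it. VEGFA fell in erastin-R (log2 -0.53 ± 0.06, edgeR adjusted p = 7.22e-06) and rose in RSL3-R (log2 0.43 ± 0.06, edgeR adjusted p = 5.02e-05). RSL3-R exceeded erastin-R 1.95-fold (log2 0.97 ± 0.06, edgeR adjusted p = 4.89e-08), and was at least 2-fold higher in 5 of 16 alternative analyses, among them those without erastin-R replicate 3 (log2 1.02) or RSL3-R replicate 1 (1.02) or 3 (1.01). No other member passed the test in opposite directions. The summed level of the 8 markers of other cells had the same order of groups, with PECAM1 varying most, and their part in the VEGFA result was not tested.

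**Figure D2:**
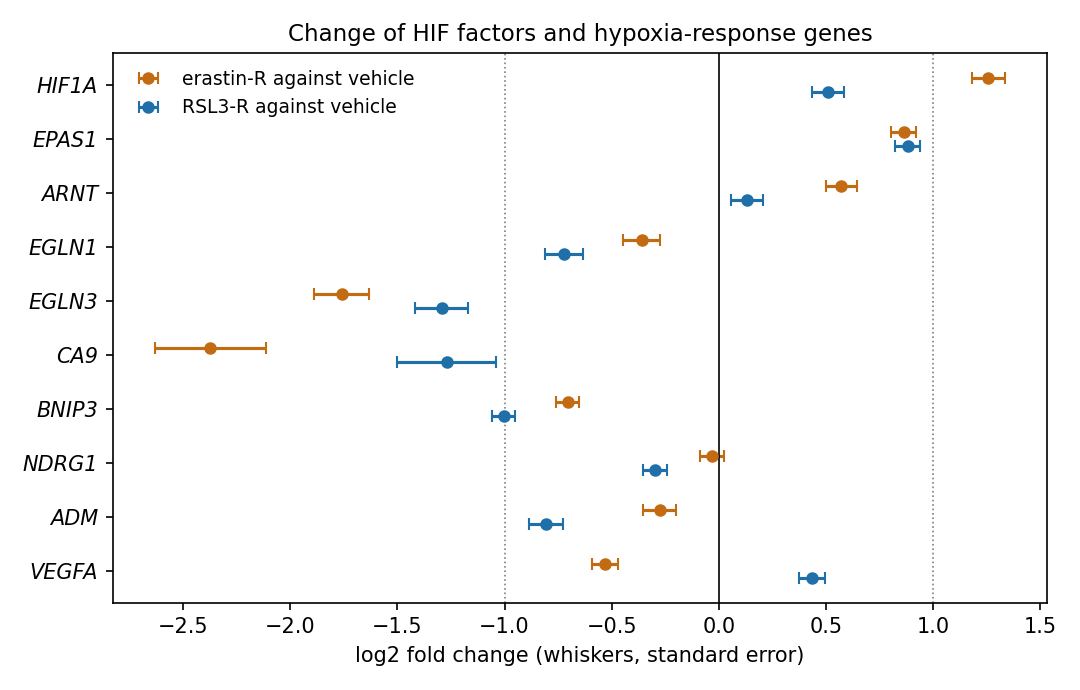
Log2 fold change of each member against vehicle in erastin-R and RSL3-R, with whiskers of 1 standard error and dotted lines at a 2-fold change. The 3 HIF subunits lie right of 0, the hydroxylases and CA9, BNIP3 and ADM lie left of it in both groups, and VEGFA lies on opposite sides.

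The direct comparison of the survivors of RSL3 with those of erastin asked where both drugs left the cells different. CA9 was the only member past the 2-fold threshold, where 10.3% of all genes were called (6.86% higher in RSL3-R), although 9 of 10 passed the test without a minimum fold, against 49.2% of all genes (26.9% lower). CA9, EGLN3 and VEGFA were higher in RSL3-R. HIF1A, ARNT, EGLN1, BNIP3, NDRG1 and ADM were lower, and EPAS1 did not pass. The median log2 difference of the members was -0.28, with -0.02 over all genes. The groups did not overlap for 9 of the 10 members in erastin-R against vehicle, for 10 in RSL3-R against vehicle and for 9 between the treated groups, where 57.9%, 61.9% and 55.2% of all tested genes were so separated.

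Levels of different genes were compared per length only, as mean FPKM over 3 libraries. The length is that of all annotated exons of a gene merged, 14431 bases for VEGFA and 5325 for BNIP3, and the order depends on it. By CPM, VEGFA in vehicle (438.4) lay above NDRG1 (363.6) and BNIP3 (327.2). The overlap of CA9 with ARHGEF39 limits the place of CA9 as well. In vehicle the order was HIF1A at 110.7, BNIP3 at 60.8, NDRG1 at 36.6, VEGFA at 30.1, ADM at 20.1, EGLN1 at 15.7, EPAS1 at 10.04, ARNT at 7.85, CA9 at 3.60 and EGLN3 at 2.44, and the ranges of all neighbours were apart. In erastin-R, HIF1A reached 263.7 while BNIP3 at 37.1 and NDRG1 at 35.7 overlapped, as did EPAS1 at 18.2 with ADM at 16.6, EGLN1 at 12.2 with ARNT at 11.6, and EGLN3 at 0.719 with CA9 at 0.693. In RSL3-R, HIF1A at 158.0 was followed by VEGFA at 40.8, which had moved ahead of BNIP3 at 30.4 and NDRG1 at 29.9, whose ranges overlapped. EPAS1, at rank 7 in vehicle, stood at rank 5 in both treated groups, and EGLN3 and CA9 kept the last 2 places in all groups.

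**Figure D3:**
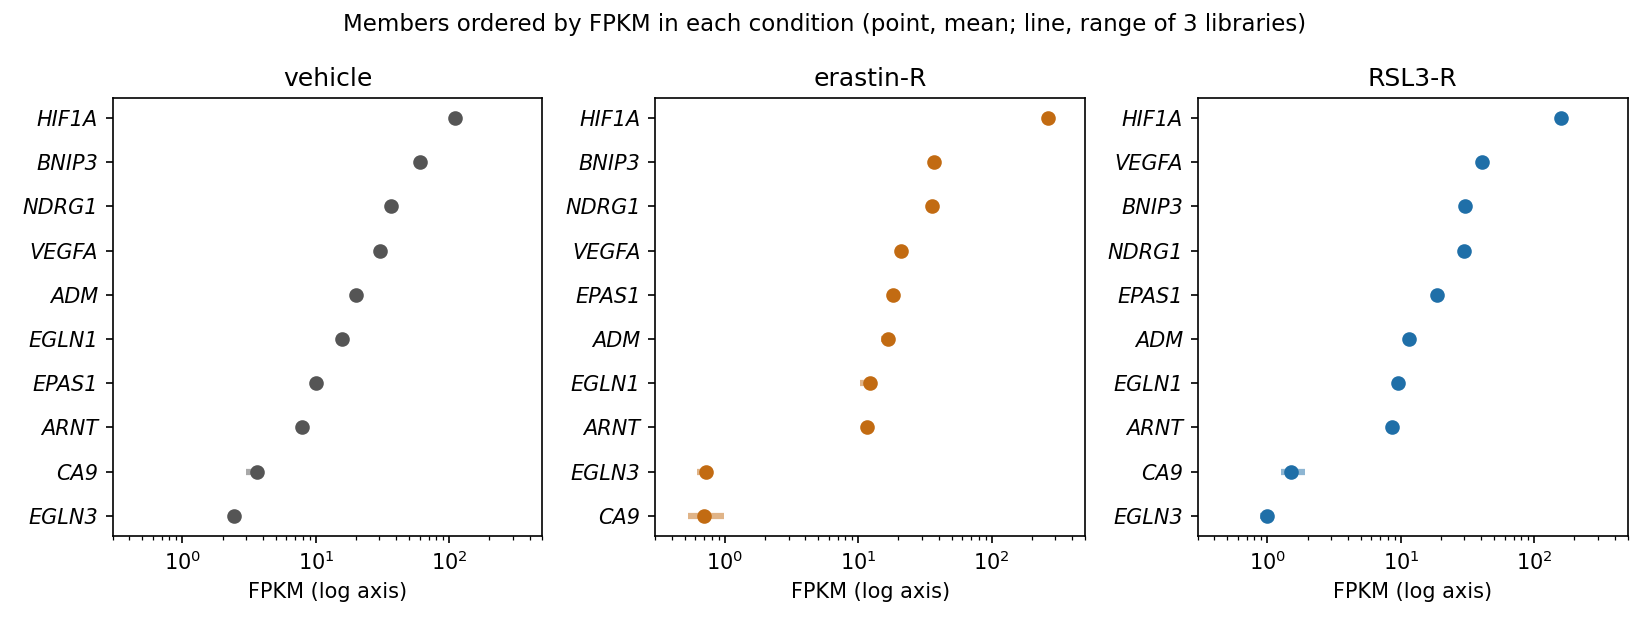
The members ordered by mean FPKM (log axis) in vehicle, erastin-R and RSL3-R; points are means and lines the range of 3 libraries. HIF1A leads in every group, from 110.7 FPKM in vehicle to 263.7 in erastin-R, and EGLN3 and CA9 are last.

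Partners and regulators of the HIF subunits formed a list of 14 genes. None of the 13 tested passed the 2-fold threshold in any comparison, and HIF3A, the other alpha subunit, had only 2 to 8 counts per library. Without the minimum fold, 5 were higher and 1 lower in erastin-R (median log2 0.11), and 3 were higher and 4 lower in RSL3-R (median 0.06), that is 6 and 7 of 13, a share near that of all genes (54.0% and 48.7%). VHL, which recognises hydroxylated alpha subunits, rose from 74.6 ± 2.10 CPM in vehicle to 94.3 ± 3.12 in erastin-R and 112.9 ± 3.29 in RSL3-R (SD, n = 3; log2 0.34 and 0.60, edgeR adjusted p = 2.83e-04 and 1.90e-06). CITED2, a HIF-inducible protein that competes with the alpha subunit for the coactivators EP300 and CREBBP, rose by a log2 of 0.67 and 0.61 (edgeR adjusted p = 5.40e-07 and 1.42e-06). SIAH2, a ubiquitin ligase that targets EGLN enzymes, rose by 0.75 in erastin-R and 0.22 in RSL3-R (edgeR adjusted p = 4.33e-06 and 0.0425), and CREBBP fell by a log2 of -0.47 and -0.20 (edgeR adjusted p = 2.47e-05 and 0.0151). These 4 genes passed the test at under 2-fold in the same direction in both comparisons, and were named after their values had been seen. HIF1AN (log2 0.20, edgeR adjusted p = 0.0171) and ELOB (log2 0.18, edgeR adjusted p = 0.0316) also passed upwards in erastin-R. In RSL3-R, ELOB (log2 -0.20, edgeR adjusted p = 0.0186), ELOC (log2 -0.28, edgeR adjusted p = 0.00595) and RBX1 (log2 -0.30, edgeR adjusted p = 0.0351) passed downwards.

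Of 26 other HIF target genes, 25 were tested, and EPO had at most 3 counts in any library. In erastin-R 7 passed the test upwards, 14 downwards and 4 not (median log2 -0.23), and in RSL3-R 8 upwards, 14 downwards and 3 not (median -0.26), that is 21 and 22 of 25 where 54.0% and 48.7% of all genes passed. Neither for this list nor for the others were the shares of all genes matched for read count. At the 2-fold threshold 4 of 25 were called in erastin-R, beside 13.4% of all genes. HMOX1, heme oxygenase 1 and also an NRF2 target, rose from 8.76 ± 0.700 to 25.4 ± 1.13 CPM (log2 1.53, edgeR adjusted p = 9.36e-08). CXCR4, a chemokine receptor, fell from 3.78 ± 0.156 to 0.885 ± 0.618 CPM (log2 -2.07, edgeR adjusted p = 4.44e-04), and ANGPTL4, an inhibitor of lipoprotein lipase, fell from 40.5 ± 0.870 to 15.5 ± 3.88 CPM (log2 -1.38, edgeR adjusted p = 1.15e-06).

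In RSL3-R, 6 of these 25 targets passed the 2-fold threshold, beside 10.1% of all genes. STC2, a secreted glycoprotein, rose from 2.04 ± 0.550 to 7.49 ± 0.534 CPM (log2 1.87, edgeR adjusted p = 4.79e-06), and RORA, a nuclear receptor, from 0.877 ± 0.313 to 3.07 ± 0.820 CPM (log2 1.80, edgeR adjusted p = 2.59e-04). CXCR4 fell by a log2 of -1.47 (edgeR adjusted p = 0.00401) and ANGPTL4 by -1.07 (edgeR adjusted p = 1.26e-05). Counts were low for STC2 (25 to 42 per library in vehicle), RORA (11 to 20 in vehicle) and CXCR4 (15 to 30 in RSL3-R). These genes were not tested where a mean FPKM of at least 1 was required, which left no upward call in RSL3-R. TFRC, the transferrin receptor that brings iron into cells, fell from 722.4 ± 7.19 to 315.7 ± 11.1 CPM (log2 -1.19, edgeR adjusted p = 7.31e-10). HILPDA, a lipid droplet protein, fell from 15.1 ± 1.45 to 7.13 ± 0.366 CPM (log2 -1.08, edgeR adjusted p = 4.57e-06), and 10.2% of its 50-base words occur in other genes.

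Most glycolytic HIF targets fell in both groups. All 20 were tested, and 13 passed downwards and 4 upwards in erastin-R (median log2 -0.39) against 16 downwards and 1 upwards in RSL3-R (median -0.70), where 26.8% and 24.9% of all genes passed downwards. LDHA, lactate dehydrogenase A, went from 2055 ± 51.0 CPM in vehicle to 1011 ± 20.6 in erastin-R and 843.4 ± 20.2 in RSL3-R (log2 -1.02 and -1.29, edgeR adjusted p = 3.31e-09 and 2.73e-10). PFKFB4, an enzyme that regulates glycolysis, fell by a log2 of -1.03 and -1.11 (edgeR adjusted p = 3.20e-08 and 1.41e-08). TPI1, triosephosphate isomerase, passed the 2-fold threshold in erastin-R (log2 -1.15, edgeR adjusted p = 9.86e-08). PGAM1, a phosphoglycerate mutase, and PGK1, a phosphoglycerate kinase, passed it in RSL3-R (log2 -1.38 and -1.08, edgeR adjusted p = 3.79e-08 and 1.11e-09).

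SLC2A3, a glucose transporter, went the other way, from 66.3 ± 0.907 CPM to 146.9 ± 6.12 in erastin-R and 108.4 ± 3.48 in RSL3-R (log2 1.15 and 0.71, edgeR adjusted p = 4.86e-09 and 3.85e-07). HK2, the inducible hexokinase, rose in erastin-R (log2 0.67, edgeR adjusted p = 1.41e-05) and fell in RSL3-R (log2 -0.54, edgeR adjusted p = 1.20e-04). Shared sequence limits some of these values, since 30.5% of the 50-base words of PGAM1, 16.0% of those of SLC2A3 (mainly in SLC2A14) and 12.6% of those of TPI1 occur in other genes. The largest share, 37.9%, was that of ALDOA, named only for this limit, and AC093512.2 on the same strand overlaps 42.3% of its exon length. ALDOA is 1 of the genes counted as passing downwards in RSL3-R (log2 -0.40, edgeR adjusted p = 0.0168). HK2 is named here because it was the only glycolytic gene past 2-fold between the treated groups (log2 -1.21, edgeR adjusted p = 1.11e-07), and was chosen after its values were seen.

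**Figure D4:**
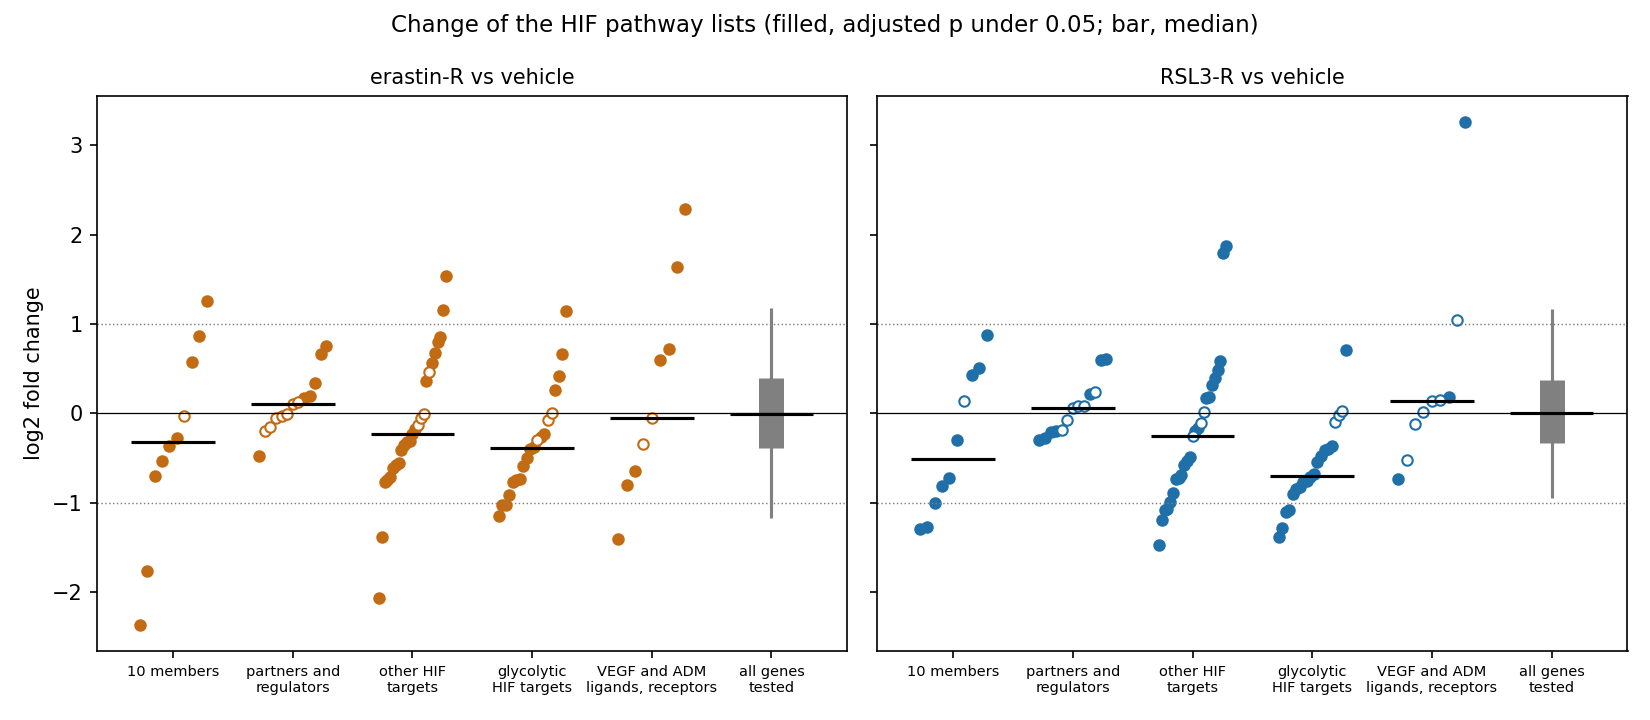
Log2 fold change against vehicle of every tested gene of the 5 lists; filled points passed at an adjusted p under 0.05, bars are medians, and for all tested genes the thick and thin bars span the quartiles and the 5th to 95th percentiles. The glycolytic list has the lowest median in both panels, at -0.39 in erastin-R, where the members lie at -0.32, and -0.70 in RSL3-R, where they lie at -0.51.

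VEGFA and ADM act on other cells or on the same cell through receptors, of which little was measured here. Of the 14 listed ligands and receptors 9 were tested. RAMP2 and RAMP3, which pair with CALCRL to form the adrenomedullin receptors, had 0 counts in all 9 libraries, and CALCRL had at most 10. FLT1 and FLT4 had at most 6 and 3 counts, and KDR, the main signalling receptor for VEGFA, had 144 to 185 counts and did not pass in either comparison with vehicle. A floor of 3 counts corresponds to 0.175 to 0.193 CPM.

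Among the ligands, ADM2, a peptide related to adrenomedullin, had 3.696, 3.026 and 2.776 CPM in vehicle, 14.83, 16.16 and 15.68 CPM in erastin-R, and 28.75, 31.88 and 31.03 CPM in RSL3-R. The groups were far apart, opposite in order to ADM, and ADM2 rose by a log2 of 2.29 ± 0.13 and 3.27 ± 0.12 (edgeR adjusted p = 7.59e-09 and 1.68e-10). PGF, placental growth factor, fell in erastin-R (log2 -1.41 ± 0.13, edgeR adjusted p = 8.88e-07) and, under 2-fold, in RSL3-R (log2 -0.73 ± 0.12, edgeR adjusted p = 2.54e-04). VEGFD rose in erastin-R (log2 1.64 ± 0.46, edgeR adjusted p = 0.00830), at levels of 0.37 to 1.43 CPM in vehicle and 1.76 to 3.51 CPM in erastin-R. Its counts were low, at 24, 7 and 6 in the vehicle libraries. VEGFD was not tested where a mean FPKM of at least 1 was required, which left 2 calls of this list in erastin-R. In the list as a whole 3 of 9 passed the 2-fold threshold in erastin-R and 1 of 9 in RSL3-R, beside 13.4% and 10.1% of all genes. Without the minimum fold 4 passed upwards and 3 downwards in erastin-R (median log2 -0.05) and 2 upwards and 1 downwards in RSL3-R (median 0.14), that is 7 and 3 of 9 beside 54.0% and 48.7% of all genes. NRP1, a coreceptor for VEGFA, had the same directions as VEGFA, falling in erastin-R (log2 -0.80, edgeR adjusted p = 4.33e-08) and rising in RSL3-R (log2 0.18, edgeR adjusted p = 0.0107). The rise of NRP1 did not pass without vehicle replicate 2 (log2 0.17, edgeR adjusted p = 0.0526), and NRP1 was named after its values were seen.

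For the members past the 2-fold threshold against vehicle, the 2 protein-coding genes with the most similar pattern, on none of the lists, were found by the root-mean-square distance of log2 CPM, centred on each gene's mean, over the 9 libraries. They were FAM49A (0.0475) and FAM114A1 (0.0598) for HIF1A, ESCO2 (0.101) and TNFRSF19 (0.123) for EGLN3, RIBC2 (0.218) and RHOJ (0.222) for CA9, and RPA1 (0.0464) and TTF2 (0.0556) for BNIP3. The distances are in log2 units and larger for the low-count genes CA9 and EGLN3 than for HIF1A and BNIP3. They describe these libraries only.

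The core ACGTG was finally set against the changes of all genes. It was found for 3 of the 8 members with a window, for 5 of 11 partners and regulators, 14 of 22 other targets, 13 of 19 glycolytic targets and 0 of 10 ligands and receptors, against 24.9% of all genes with a window. That share covers 27305 genes, tested or not, so it is not matched to the lists. A gene counted if any of its windows held the core, and windows per gene differed. In the same order the lists had 9, 20, 33, 39 and 11 windows, against 35116 for the 27305 genes. Among tested genes with a window, the median log2 fold changes in erastin-R and RSL3-R were 0.00 and -0.02 for the 3452 with the core, and -0.02 and -0.03 for the 7335 without it. At an adjusted p under 0.05 without a minimum fold, 28.3% of the genes with the core were lower in erastin-R and 30.01% higher, against 29.5% and 27.6% of those without it. In RSL3-R 29.5% were lower and 24.5% higher with the core, against 28.5% and 23.9% without.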

How the data were processed

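RNA of 9 MDA-MB-231 libraries was oligo(dT)-selected and prepared with a kit that does not mark strand. Per the labels, HISAT2 2.0.5 and featureCounts 1.5.0-p3 were used, and the strand setting is not given in the sources used here. The deposited counts are whole reads per gene, and all 58735 gene positions equal those of GENCODE 29 on GRCh38. The deposited FPKM values, which the authors computed per exon length and library, served to compare levels between genes. They were also used for the HIF1A to EPAS1 ratio and for the alternative filter at a mean FPKM of at least 1.

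The counts were fitted in 1 model of 3 groups with edgeR 4.0.16 (R 4.3.3; TMM scaling, filterByExpr, quasi-likelihood test), with Benjamini-Hochberg adjustment over 16188 genes. Total counts were 15405102 to 17273464 per library, and the biological coefficient of variation was 8.56%. Floors cover counting error only. Alternatives were DESeq2 1.42.0, RLE scaling, limma 3.58.1 after quantile normalization, other filters and thresholds, 2 groups only, a replicate block and leaving out each library.

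The members and lists were chosen with earlier results of these data known. The rule for named genes took all members, up to 5 genes per list and comparison with vehicle past the 2-fold threshold, defining genes that were not detected, and 2 genes of similar pattern per called member. Exceptions are marked, and 1 gene that the rule named is not reported here. Overlaps and shared 50-base words were computed from GENCODE 29 and promoter windows taken from RefSeq.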

Additional observations from a re-analysis of the deposited data

Results flagged for a closer look

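Of the 77 tested genes of the 5 lists, 5 passed at an adjusted p under 0.05 in opposite directions against vehicle in erastin-R and RSL3-R, and also in the direct comparison of both groups (edgeR, RSL3-R minus erastin-R on the log2 scale). This is 6.49% of the listed genes, where 637 of all 16188 tested genes (3.94%) did so. These were VEGFA (0.966), the glycolytic gene HK2 (-1.21), the VEGF coreceptor NRP1 (0.985), the collagen-modifying enzyme PLOD2 (0.408) and the VHL complex subunit ELOB (-0.379). VEGFA and HK2 passed in both comparisons with vehicle under every alternative run. HK2 had 114.2 ± 2.81 CPM in vehicle, 181.3 ± 24.5 CPM in erastin-R and 78.3 ± 1.83 CPM in RSL3-R (SD, n = 3), and no groups overlapped. NRP1 had 1156, 1168 and 1218 CPM, then 712.8, 664.9 and 654.8, then 1344, 1329 and 1349, and its rise in RSL3-R was lost with quantile normalization (log2 0.11, limma adjusted p = 0.078) or without vehicle replicate 2 (log2 0.17, edgeR adjusted p = 0.0526). PLOD2 had 350.0, 369.5 and 398.3 CPM in vehicle, and its rise in RSL3-R (log2 0.18, edgeR adjusted p = 0.0291) was lost without vehicle replicate 1 (log2 0.13) or 2 (log2 0.17) and with no filter on low counts (log2 0.17). For ELOB the log2 change was 0.18 with erastin and -0.20 with RSL3 (edgeR adjusted p = 0.0316 and 0.0186), and the first of these was lost without any single vehicle library, at 0.16 to 0.18, without erastin-R replicate 2 (0.13) or 3 (0.18), with quantile normalization (0.14), with no filter (0.17) or with only the 2 groups (0.18), and the second with quantile normalization (-0.15), without vehicle replicate 1 (-0.20) or 2 (-0.20) or RSL3-R replicate 1 (-0.13) or 3 (-0.18). On the opposite strand SRRM2 overlaps 16.8% of the exon length of ELOB.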

How the results depend on the processing

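Of 480 values of the 10 members over 16 alternatives and 3 comparisons, 477 kept their direction and side of the adjusted p threshold, and ARNT in RSL3-R passed with only the 2 groups compared (log2 0.14, edgeR adjusted p = 0.0438). The sign changed for 2 values that passed in neither fit, NDRG1 in erastin-R with quantile normalization (log2 0.0102, limma adjusted p = 0.894) and EPAS1 between the treated groups without erastin-R replicate 2 (log2 -0.013, edgeR adjusted p = 0.888; up to 0.0793 without RSL3-R replicate 1), and the cause was not tested. Without a minimum fold, in the order erastin-R against vehicle, RSL3-R against vehicle and RSL3-R against erastin-R, 9, 9 and 9 of 10 members passed, 6, 7 and 4 of 13 partners and regulators, 21, 22 and 16 of 25 other targets, 17, 17 and 14 of 20 glycolytic targets and 7, 3 and 6 of 9 ligands and receptors, where 54.0%, 48.7% and 49.2% of all genes passed. At a mean FPKM of at least 1, the counts were 3 other targets in erastin-R and 3 in RSL3-R, and 2 ligands and receptors in erastin-R. Between the treated groups they were 1 other target, 2 members and 2 ligands and receptors. All genes called fell with this filter from 2162, 1635 and 1674 to 1255, 996 and 871. Between the treated groups the members called were 0 with quantile normalization and 2 with only the 2 groups, and the ligands and receptors 1 with DESeq2, RLE or quantile normalization and 2 with only the 2 groups. For ligands and receptors in RSL3-R the count was 2 with no filter, with only the 2 groups or with the replicate block. Between the treated groups quantile normalization split the calls of all genes into 822 higher and 644 lower, against 1111 and 563. The median of all genes shifted by at most 0.0406 under any alternative.

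Leaving out 1 library at a time, the members called were 3 to 3 in erastin-R, 2 to 3 in RSL3-R and 0 to 2 between the treated groups (0 without erastin-R replicate 1, 2 without RSL3-R replicate 1). For the other targets the ranges were 4 to 5, 6 to 7 and 1 to 4 (4 without erastin-R replicate 1, 1 without RSL3-R replicate 1), and for ligands and receptors 1 to 2 in RSL3-R (2 without vehicle replicate 1 or erastin-R replicate 1) and 0 to 2 between the treated groups. In the last of these it was 2 without RSL3-R replicate 1 and 1 without erastin-R replicate 1 or RSL3-R replicate 3. Deviations of same-numbered libraries correlated at -0.00495 on average (-0.0904 to 0.0518), and those of libraries with different numbers at 0.00256. With 3 libraries per group, these values cannot tell whether same-numbered samples were handled together. The replicate block left 3 and 3 members called against vehicle, with 2153, 1614 and 1652 genes called in all.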
